A study of Homo sapiens with 4 samples.

Results

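The genes described here encode receptors for the Fc portion of antibodies and the proteins that carry their signal into the cell. They were chosen by name, from a list of 10: FCGR1A, FCGR2A, FCGR2B, FCGR2C, FCGR3A, FCER1G, TYROBP, SYK, FCGRT and FCAR. The deposited table held 18567 genes and had a row for 9 of the 10, while FCGR3A was not analysed here. All 9 were at or above 1 TPM (a level scaled to transcript length and to the total of its sample) in each of the 4 samples. The list was drawn up with the difference between the groups in view, so the levels of these 9 genes are given as a description without a test.

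The samples were Kasumi-1 cells, an established acute myeloid leukemia line that carries the RUNX1-RUNX1T1 fusion. Total RNA was sequenced from 2 NC samples and 2 sh-ANP32B samples, in which a short hairpin RNA lowered ANP32B, an acidic nuclear phosphoprotein. The labels call the NC cells untreated with no shRNA, whereas the study's methods describe a control hairpin delivered by lentivirus, so what the NC cells carried is uncertain. The labels do not name the ANP32B hairpin used, and they do not say whether samples of a group came from separate cultures. The methods speak of independent repeats for experiments in general, without naming these samples, so the p-values may measure technical spread only.

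ANP32B, the targeted gene, was at 384 and 392 TPM in NC and at 51.8 and 41.2 TPM in sh-ANP32B, a mean 0.12 times that of NC. Sequencing depth is unknown, since TPM keeps none. Of 5 markers listed for the line, 3 were in the table. RUNX1T1, the fusion partner, was at 17.6 and 15.6 TPM in NC and at 31.2 and 26.8 TPM in sh-ANP32B, CD33 was between 58.5 and 70.1 TPM in the 4 samples, and KIT was low, at 1.55 to 3.41 TPM. CD34 and MPO were not analysed here.

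Fc receptors connect antibodies to the cells that act on them. Activating receptors signal through a tyrosine-based motif called an ITAM, which FCGR2A and FCGR2C carry in their own tail and which FCGR1A, FCGR3A and FCAR borrow from the adaptor FCER1G. Src family kinases phosphorylate the ITAM, the kinase SYK docks on it, and the signal runs on to phagocytosis, the oxidative burst and cytokine release. FCGR2B carries the opposite motif, an ITIM, which recruits the phosphatase INPP5D and dampens the signal. TYROBP, also called DAP12, is a sister ITAM adaptor used by many myeloid and NK cell receptors. FCGRT, the heavy chain of the neonatal Fc receptor, pairs with B2M, binds IgG inside the cell and returns it to the surface instead of signaling. In myeloid cells most of these genes are part of the equipment of maturing phagocytes.

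FCGR2C has to be read together with FCGR2A and FCGR2B, because it is built from copies of both. Over the coding part of its exons 1 to 5, 757 of 760 bases (99.6%) matched FCGR2B and 87.0% matched FCGR2A. The FCGR2A share was lowest in exons 1 (42%) and 2 (52.4%), and was 96.5%, 96.9% and 93.9% in exons 3, 4 and 5. FCGR2A exon 1 has 85 coding bases against 112 in FCGR2C, so part of its low share is its shorter length. Over exons 6 and 7 the relation turned around, since 208 of 209 bases (99.5%) matched FCGR2A and 35.4% were matched in FCGR2B, whose last coding exon is shorter. The switch can be seen in a pair of stretches taken from the hg38 genome with the GENCODE v44 exons, all on the plus strand of chromosome 1. The first is 60 bases of exon 4, which encodes extracellular sequence. It was chosen as identical in FCGR2C and FCGR2B and most different from FCGR2A, so its pattern was set by the choice. Over the 255 coding bases of exon 4, 255 matched FCGR2B and 247 matched FCGR2A. Capitals mark the 5 positions at which the 3 genes are not all the same.
FCGR2C exon 4, chr1:161591232-161591291: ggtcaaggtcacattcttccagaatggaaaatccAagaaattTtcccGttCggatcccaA
FCGR2B exon 4, chr1:161673063-161673122: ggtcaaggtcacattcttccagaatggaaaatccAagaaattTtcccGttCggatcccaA
FCGR2A exon 4, chr1:161509908-161509967: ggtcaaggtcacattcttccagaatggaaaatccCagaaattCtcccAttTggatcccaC
The second is a 38-base exon of the intracellular tail. It is exon 6 of FCGR2C and FCGR2A and exon 7 of FCGR2B, with capitals at the 9 positions that differ. Exon 6 of FCGR2B was left out of the pairing, since the main FCGR2B transcript has a further coding exon.
FCGR2C exon 6, chr1:161595553-161595590: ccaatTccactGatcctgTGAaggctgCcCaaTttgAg
FCGR2A exon 6, chr1:161513895-161513932: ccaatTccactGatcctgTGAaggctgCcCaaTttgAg
FCGR2B exon 7, chr1:161677328-161677365: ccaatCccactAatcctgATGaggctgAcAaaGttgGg
At the marked positions FCGR2C has the FCGR2B letters in exon 4 and the FCGR2A letters in exon 6. The comparison of exons shows the same switch along the whole coding sequence, with 99.4% of the 171 coding bases of FCGR2C exon 7 matched in FCGR2A and 26.3% in FCGR2B. The paired FCGR2B exon has 75 coding bases, of which 45 matched, so part of the low share is its shorter length.

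**Figure D1:**
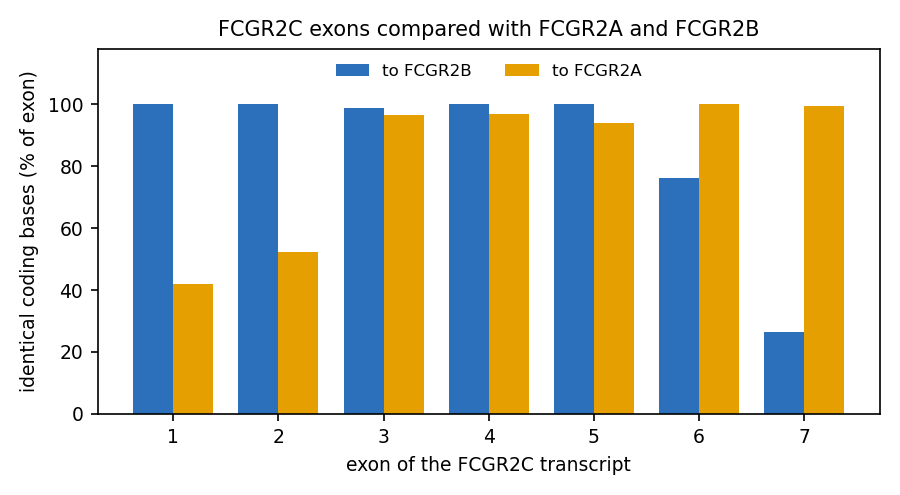
Percent of the coding bases of each FCGR2C exon (horizontal axis, exon number) that are identical in the paired exon of FCGR2A and of FCGR2B (vertical axis, %). Exons 1 to 5 match FCGR2B at 98.8% to 100% and exons 6 and 7 match FCGR2A at 99.4% to 100%.

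These copies limit what a read can say. A read was taken as ambiguous if its sequence also occurs in another annotated gene, and windows of 100 bases along the main transcript of each gene stood in for reads. By that measure 67.3% of FCGR2C could not be assigned to it alone, against 29.8% of FCGR2B, 38.5% of FCGR2A, 48.4% of FCGR1A and 27.3% of FCAR. FCGR2C shared 60.2% of its windows with FCGR2B and 11.3% with FCGR2A. FCGR2A shared 30.0% with an overlapping long noncoding RNA (ENSG00000289273), but 4.32% with FCGR2C and 2.59% with FCGR2B. FCGR1A shared its windows with its pseudogenes FCGR1CP (34.6%) and FCGR1BP. FCER1G, TYROBP, SYK and FCGRT shared no window with another annotated gene. Only exact matches of 100 bases were counted, and shorter or inexact matches were not examined. How reads that fit several genes were treated is not given in the sources used here.

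All 9 genes were higher in sh-ANP32B than in NC, and in none of them did the groups overlap. Over all 16817 genes tested, 57.9% had a difference above 0, 33.2% were higher without overlap and 21.4% were lower without overlap, and the members were picked for this contrast, so nothing is read from the count. The median difference of the 9 was 0.85 in log2(TPM + 1) units, beside a median of 0.08 for all genes. In bulk RNA, more cells of a type and more RNA per cell cannot be told apart.

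**Figure D2:**
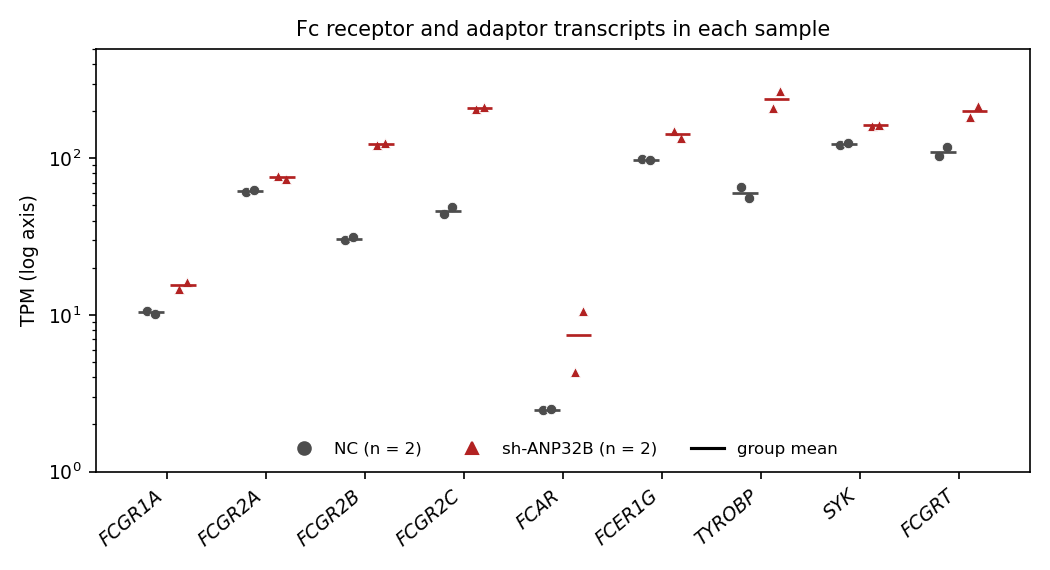
Level of each of the 9 genes in TPM (log axis) in every sample, with the NC and sh-ANP32B samples as separate points and a bar at each group mean. The sh-ANP32B samples sit above the NC samples for each gene, with the widest gaps at FCGR2B, FCGR2C and TYROBP and the narrowest at FCGR2A.

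Among the receptors for IgG, FCGR2B and FCGR2C had the widest differences. FCGR2B (ENSG00000072694, chr1:161663143-161678654), the inhibitory receptor, was at 30.1 and 31.2 TPM in NC and at 122 and 125 TPM in sh-ANP32B. Its mean went from 30.7 ± 0.781 to 124 ± 2.31 TPM (SD, n = 2 samples in each group), a 4.03-fold difference. FCGR2C (ENSG00000244682, chr1:161581339-161605662), the gene with FCGR2B-like ectodomain and FCGR2A-like tail shown above, was at 43.8 and 48.7 TPM in NC and at 206 and 211 TPM in sh-ANP32B, 4.51-fold by the means. The spread between samples of a group was small beside either gap.

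Because the pair share most of their ectodomain sequence, their sum is less dependent on how reads were divided than either value. FCGR2B plus FCGR2C came to 73.9 and 79.9 TPM in NC and to 328 and 336 TPM in sh-ANP32B, a 4.32-fold difference. The ratio of FCGR2C to FCGR2B was 1.46 and 1.56 in NC and 1.69 in both sh-ANP32B samples. The ratio thus moved far less than the levels, and which of the genes supplied the shared reads cannot be told from these values.

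FCGR2A (ENSG00000143226, chr1:161505430-161524013), the activating receptor of neutrophils, monocytes and platelets, differed least of the 9. It was at 60.9 and 62.3 TPM in NC and at 76.7 and 74.1 TPM in sh-ANP32B, 1.22-fold by the means. Both sh-ANP32B samples were above both NC samples, by a margin wider than the gap between samples of a group. FCGR2A made up 45.2% and 43.8% of the summed TPM of the 3 FCGR2 genes in NC and 19.0% and 18.0% in sh-ANP32B. The summed level itself was 135 and 142 TPM in NC and at 405 and 410.4 TPM in sh-ANP32B. FCGR2A was thus the most abundant gene of the trio in NC and the least abundant in sh-ANP32B, where FCGR2C led.

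FCGR1A (ENSG00000150337, chr1:149782671-149791675), the high-affinity IgG receptor known as CD64, was much lower than the FCGR2 genes. It was at 10.6 and 10.2 TPM in NC and at 14.7 and 16.2 TPM in sh-ANP32B, 1.48-fold by the means. Its pseudogenes share reads with it and were lower still. FCGR1BP was at 3.14 and 2.57 TPM in NC and at 4.30 and 4.68 TPM in sh-ANP32B, and FCGR1CP was between 2.65 and 3.23 TPM in the 4 samples with overlapping groups. FCGR1A was the highest of the FCGR1 genes in every sample.

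FCAR (ENSG00000186431, chr19:54874235-54891420), the receptor for IgA, had the lowest level of the 9. Relative to its level, it also had the widest spread between the sh-ANP32B replicates. It was at 2.47 and 2.50 TPM in NC but at 4.30 and 10.6 TPM in sh-ANP32B. The mean ratio of 2.99 therefore rests mostly on sh-ANP32B replicate 2. The difference of 1.17 in log2(TPM + 1) units was 0.61 without that sample and 1.73 without sh-ANP32B replicate 1. An overlapping long noncoding RNA (ENSG00000268734) shares sequence with FCAR and was at 1.57 and 1.99 TPM in NC and at 9.28 and 6.64 TPM in sh-ANP32B. Its 2 sh-ANP32B samples were in the opposite order to those of FCAR.

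FCGRT (ENSG00000104870, chr19:49506816-49526428) was already one of the more abundant genes of the list in NC. It was at 103 and 117 TPM in NC and at 183 and 217 TPM in sh-ANP32B, 1.82-fold by the means, with both groups spread by more than 10 TPM. B2M, the partner it needs to leave the endoplasmic reticulum, was at 866 and 870.0 TPM in NC and at 1101 and 910.1 TPM in sh-ANP32B, a difference that did not pass the test (0.21 ± 0.138 SE in log2(TPM + 1) units, adjusted p = 0.418 by limma). FCGRT is the gene of highest GC content among the 9, at 62.6% of its transcript. GC content moved with the difference between replicates 2 and 1 of sh-ANP32B (Spearman rho 0.577 across 15427 genes, which are not independent). With a correction for GC content in each sample the FCGRT difference went from 0.85 to 0.62 in log2(TPM + 1) units, and that of TYROBP, at 58.4% GC, from 1.97 to 1.77.

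The ITAM adaptors differed from each other in size of difference. FCER1G (ENSG00000158869, chr1:161215234-161220699), the common gamma chain, was at 98.7 and 96.9 TPM in NC and at 149 and 135 TPM in sh-ANP32B, 1.45-fold by the means. TYROBP (ENSG00000011600, chr19:35904401-35908295, minus strand) was at 65.4 and 55.4 TPM in NC and at 211 and 270.1 TPM in sh-ANP32B, 3.98-fold by the means. FCER1G was thus the more abundant adaptor in both NC samples and TYROBP in both sh-ANP32B samples. The ratio of TYROBP to FCER1G was 0.662 and 0.571 in NC and 1.41 and 2.00 in sh-ANP32B.

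SYK (ENSG00000165025, chr9:90801787-90898549), the kinase that reads the phosphorylated ITAM, was at 121 and 124 TPM in NC and at 161 and 163 TPM in sh-ANP32B. The means were 123 ± 2.31 and 162 ± 1.16 TPM (SD, n = 2), 1.32-fold, with the closest replicates in sh-ANP32B of any gene on the list relative to its level. SYK was the most abundant of the 9 in NC.

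The order of levels changed between the groups. In NC it ran from SYK through FCGRT, FCER1G, FCGR2A, TYROBP, FCGR2C, FCGR2B and FCGR1A to FCAR. FCGR2A and TYROBP overlapped in their samples, and no other neighbours in this order did. In sh-ANP32B TYROBP came first with a mean of 240.3 TPM, before FCGR2C, FCGRT, SYK, FCER1G, FCGR2B, FCGR2A, FCGR1A and FCAR. The samples of TYROBP overlapped with those of FCGR2C, and those of FCGR2C with those of FCGRT, so the order of the leading genes is not resolved. Summed over the 9 genes, the level was 536 and 549 TPM in NC and at 1128 and 1222 TPM in sh-ANP32B.

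FCER1G and the FCGR2 genes lie on the same arm of chromosome 1, and 15 genes of the table lie from FCER1G to FCRLB. This window was chosen after its values were seen and is described without a test. FCGR2A starts 290.2 kb from the start of FCER1G, FCGR2C 366 kb and FCGR2B 448 kb. HSPA6, a stress-inducible heat shock gene next to FCGR2A, was at 3.43 and 1.95 TPM in NC and at 13.1 and 17.6 TPM in sh-ANP32B. HSPA7, its near-identical pseudogene between FCGR2C and FCGR2B, was at 21.8 and 23.9 TPM in NC and at 86.4 and 133 TPM in sh-ANP32B. Reads of HSPA6 and HSPA7 may be divided between them in an uncertain way. The 4 genes with log2 differences from 1.98 to 2.18 in this window were FCGR2B, FCGR2C, HSPA6 and HSPA7, while FCGR2A, which starts before all of them, had a difference of 0.29. The flanking genes ranged from -0.49 for TOMM40L to 0.67 for PCP4L1, with SDHC at 0.03.

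**Figure D3:**
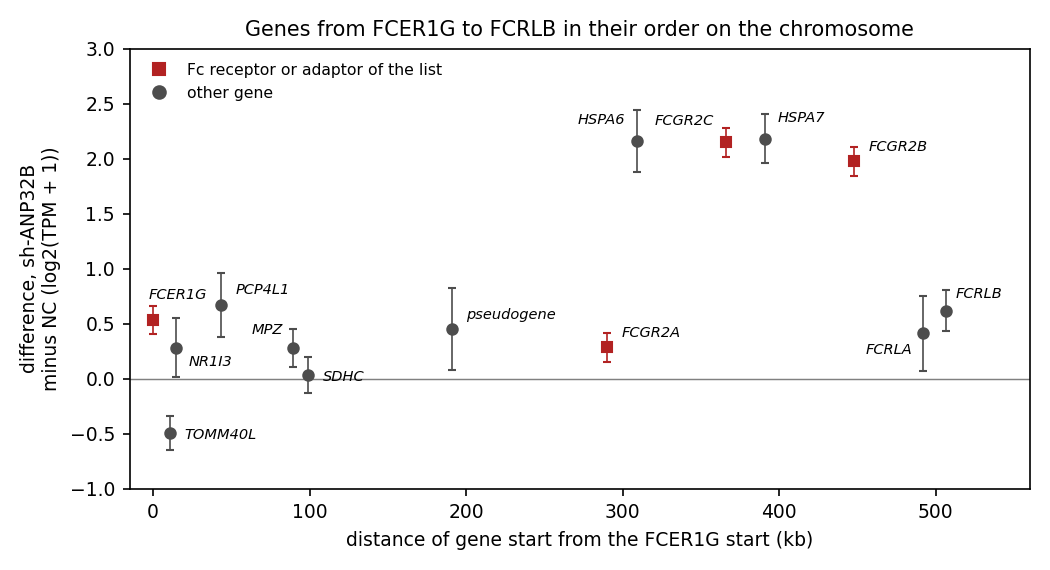
Difference between sh-ANP32B and NC in log2(TPM + 1) units (vertical axis, points with standard error) for the tested genes from FCER1G to FCRLB, placed by the distance of their start from the start of FCER1G (horizontal axis, kb). FCGR2C and FCGR2B stand with HSPA6 and HSPA7 at 1.98 to 2.18, and FCGR2A stands with the flanking genes at 0.29.

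The sequences just upstream of these genes were read from RefSeq (GRCh38.p14), which gave 15 start sites for 8 of the 10 genes. FCGR2C and FCAR had no entry. The 250 bases before each start were searched for GAGGAA on both strands, the core of the element bound by the myeloid factor PU.1 and other ETS proteins, and for TTCNNNGAA, the palindrome of a GAS element bound by STAT proteins. GAGGAA was found in 23.6% and TTCNNNGAA in 6.57% of 35116 such windows over the genome. Among the list, GAGGAA was found for 5 genes (FCGR1A, FCGR2A, FCGR2B, SYK and TYROBP) and not for FCER1G, FCGRT or FCGR3A, and TTCNNNGAA for FCGR1A and FCGR2B. A gene with several starts was counted if any of its windows had a match. The genome shares are per window, so the gene counts cannot be set against them. The windows of FCGR2B, FCGR2A and TYROBP are shown because these genes had the wide and the narrow differences, with matches to either motif in capitals (GAGGAA on the opposite strand reads TTCCTC).
FCGR2B, chr1:161662893-161663142, plus strand: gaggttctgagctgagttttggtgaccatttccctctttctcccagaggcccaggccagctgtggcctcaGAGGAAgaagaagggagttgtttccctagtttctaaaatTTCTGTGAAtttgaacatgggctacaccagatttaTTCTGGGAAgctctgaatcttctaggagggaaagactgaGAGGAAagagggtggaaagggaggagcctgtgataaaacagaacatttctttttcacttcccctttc
FCGR2A, chr1:161505207-161505456, plus strand: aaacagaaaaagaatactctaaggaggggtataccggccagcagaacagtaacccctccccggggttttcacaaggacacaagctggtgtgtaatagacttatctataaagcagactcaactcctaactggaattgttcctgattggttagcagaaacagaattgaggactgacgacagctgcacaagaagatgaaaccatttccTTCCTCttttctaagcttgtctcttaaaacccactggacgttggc
TYROBP, chr19:35908296-35908545, minus strand: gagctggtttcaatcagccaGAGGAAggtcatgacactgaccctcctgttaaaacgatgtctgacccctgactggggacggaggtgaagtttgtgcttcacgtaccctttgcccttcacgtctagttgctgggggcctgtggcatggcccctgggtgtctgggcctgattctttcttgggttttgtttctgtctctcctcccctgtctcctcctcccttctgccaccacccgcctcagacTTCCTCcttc
FCGR2B holds 2 matches to each motif in this window and none in the window of its other start. FCGR2A and TYROBP each hold GAGGAA on the opposite strand close to the start, 45 and 10 bases before it, and TYROBP a further match 230 bases before it. GAGGAA is thus present both before TYROBP, with its wide difference, and before FCGR2A, with its narrow one. A match is a description of the letters, and no binding was measured here.

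The other genes of the pathway were taken from lists by role, 103 genes in all, of which 71 were in the table and 69 were tested. Of the 69, 59 had a positive and 10 a negative difference, with a median of 0.35 beside 0.08 for all genes, and 57.9% of all genes had a difference above 0. Without overlap between groups 42 of the 69 (60.9%) were higher and 5 were lower, beside 33.2% and 21.4% of all genes. By limma with Benjamini-Hochberg adjustment 2 genes (2.90%) rose at an adjusted p under 0.05 and 0 fell, close to the 3.32% of all genes called in either direction (2.14% higher and 1.18% lower). At an unadjusted p under 0.05, 23 of the 69 were higher and 1 was lower, beside 2528 higher and 1467 lower of all 16817 genes. The number called was 27 (39.1%) without sh-ANP32B replicate 1 and 26 (37.7%) without sh-ANP32B replicate 2, when 24.3% and 20.7% of all genes were called.

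**Figure D4:**
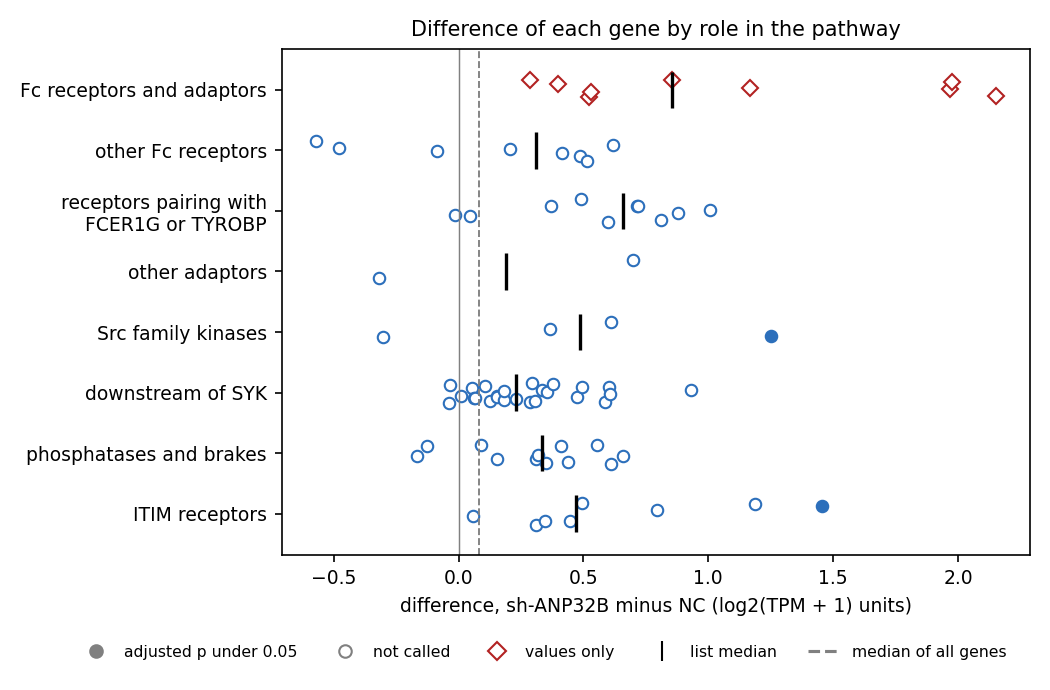
Difference between sh-ANP32B and NC in log2(TPM + 1) units (horizontal axis) for each tested gene, with rows for the 9 members and for 7 lists of pathway genes by role. The 9 members are open diamonds, shown as values only; filled circles passed an adjusted p under 0.05, black bars are list medians and the dashed line is the median of all genes at 0.08; among the 69 pathway genes only FGR and PILRA are filled, and all list medians lie above the dashed line.

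The Src family kinases start the signal, and 4 of the 8 listed were tested. FGR, a kinase of mature granulocytes and monocytes, was at 27.0 and 24.5 TPM in NC and at 60.5 and 64.7 TPM in sh-ANP32B. It rose by 1.25 ± 0.147 (SE) in log2(TPM + 1) units, with an adjusted p of 0.0261 by limma. The other Src kinases tested did not pass. LYN was at 76.7 and 78.2 TPM in NC and at 102 and 98.1 TPM in sh-ANP32B (adjusted p = 0.150 by limma). FYN was the one with a negative difference, of -0.30.

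Among 8 ITIM-bearing inhibitory receptors, all of them tested, 1 rose and 8 had a positive difference. PILRA, an inhibitory receptor of myeloid cells, was at 8.81 and 9.32 TPM in NC and at 22.0 and 32.1 TPM in sh-ANP32B. It rose by 1.46 ± 0.222 (SE) in log2(TPM + 1) units, with an adjusted p of 0.0362 by limma. The calls of FGR and PILRA were lost, each with an adjusted p of 0.114, when limma was run without the abundance trend. SIRPA, the receptor of the CD47 signal and the most abundant of the list, had a difference of 0.06 (adjusted p = 0.851 by limma). CD300LF had a difference of 0.45 (adjusted p = 0.111 by limma).

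Of 24 receptors listed as pairing with FCER1G or TYROBP, 10 were tested. Their median of 0.66 was the highest of the 7 lists, which differ in size, down to 2 tested genes for the other adaptors. In limma 0 of the 10 passed the adjusted threshold, with 4 at an unadjusted p under 0.05. The most abundant of them were CLEC5A, a TYROBP-coupled lectin, with a difference of -0.01, and PILRB, the activating partner of PILRA, with 0.49 and NC samples at 29.1 and 16.8 TPM. Of the other adaptors, HCST (DAP10) was at 71.4 and 72.6 TPM in NC and at 93.2 and 149 TPM in sh-ANP32B (adjusted p = 0.125 by limma). CD79A, the B cell receptor adaptor, had a value of 0 in sh-ANP32B replicate 1 and was at 1.15 to 2.17 TPM in the other 3 samples.

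Downstream of SYK, 25 genes were tested, 23 had a positive difference and 0 passed the adjusted threshold in limma, with 5 higher and 0 lower at an unadjusted p under 0.05. RAC2, a small GTPase of the phagocyte oxidase, was at 265 and 253 TPM in NC and at 366 and 425 TPM in sh-ANP32B (0.61 ± 0.131 SE, adjusted p = 0.0589 by limma). RAC1 was at 339 and 359 TPM in NC and at 470.0 and 391 TPM in sh-ANP32B (adjusted p = 0.252 by limma). Of 12 phosphatases and other brakes tested, 10 had a positive difference and 0 passed, with 3 at an unadjusted p under 0.05. INPP5D, the phosphatase that FCGR2B recruits, was at 174 and 162 TPM in NC and at 223 and 234 TPM in sh-ANP32B (0.44 ± 0.123 SE, adjusted p = 0.0992 by limma). DOK3 had a difference of 0.32 (adjusted p = 0.247 by limma).

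The remaining Fc receptors and Fc-binding genes had differences in both directions. Of 8 tested, 5 had a positive and 3 a negative difference, 0 passed in limma, and 2 were higher and 1 was lower at an unadjusted p under 0.05. TRIM21, a cytosolic antibody receptor, was at 32.02 and 32.8 TPM in NC and at 52.9 and 39.7 TPM in sh-ANP32B (adjusted p = 0.168 by limma). FCER2, the low-affinity IgE receptor CD23, was the one lower at an unadjusted p under 0.05, at 11.0 and 12.7 TPM in NC and at 6.70 and 8.64 TPM in sh-ANP32B (adjusted p = 0.176 by limma), and is named after its values were seen. MS4A2, the beta chain of the IgE receptor that pairs with FCER1G, was at 1.57 and 1.32 TPM in NC and at 0.694 and 0.814 TPM in sh-ANP32B.

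Fc receptors are shared by many blood cell types, so marker genes were examined beside them. Of the monocyte markers, CSF1R, the M-CSF receptor, was at 3.77 and 2.72 TPM in NC and at 3.45 and 4.20 TPM in sh-ANP32B, with overlapping groups, and CD14, FCN1 and VCAN were not analysed here. The mature granulocyte markers (2 of 4, CSF3R and CXCR2) summed to 85.6 to 89.1 TPM in NC and to 139 to 173 TPM in sh-ANP32B. CSF3R, the G-CSF receptor, rose by 0.88 in log2(TPM + 1) units (adjusted p = 0.0455 by limma). The NK and T cell markers (3 of 8) summed to 123 to 138 TPM in NC and to 132 to 163 TPM in sh-ANP32B, mostly NKG7, and CD2 rose from 1.65 and 1.57 TPM to 9.48 and 9.25 TPM (adjusted p = 0.0261 by limma). The B cell markers (2 of 4) summed to at most 8.18 TPM in any sample. The mast cell and basophil markers (2 of 4) summed to 1298 to 1441 TPM in NC and to 2029 to 3215 TPM in sh-ANP32B, nearly all from TPSAB1, a tryptase. The erythroid and megakaryocyte markers (0 of 6) were not analysed here, and no marker in the table was at 0 in a sample. The part of these markers in the differences of the Fc receptors was not tested.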

How the data were processed

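RNA from 4 Kasumi-1 samples (2 NC and 2 sh-ANP32B) was prepared with an Illumina TruSeq kit that does not mark strand. The authors deposited 1 table of TPM values. Per the labels, reads were aligned to hg38 with HISAT2 2.0.5, and the program that made the TPM values, its annotation and its filters are not given in the sources used here. The unit was read from the values, which are decimals summing to 997812 to 998314 per sample, and 0 value columns belonged to no sample. TPM are shares of a sample and hold no depth, so no counting interval was given.

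The 16817 genes that reached 1 TPM in 2 or more samples were compared on log2(TPM + 1) between the groups with limma 3.58.1 in R 4.3.3, with its variance prior following abundance (the abundance trend), two-sided, with Benjamini-Hochberg adjustment over all genes tested and a threshold of 0.05. Adding 1 makes the changes of low genes look smaller. The study used a count model, which TPM do not allow. The fit was tested on simulated data with independent noise whose spread followed abundance, as the fit itself assumes. The simulation held no effect of GC content, so it cannot show how the fit behaves with one. Symbols, exons and positions came from GENCODE v44, in which 16986 of 18567 gene IDs were found. Other steps used Python 3.11.15 with numpy 2.4.6, pandas 2.3.3, matplotlib 3.10.9 and biopython 1.88.

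The members and the pathway and marker lists were chosen with earlier results of these data known. From each pathway list, genes with an adjusted p under 0.05 were named (at most 6, by absolute log2 difference), with the 2 genes of highest mean TPM. Some listed genes are not reported here. For FCER1G, TYROBP and FCGR2A the 3 most similar genes of at least 10 TPM on average were named. The alternatives tried were other scalings (median-of-ratios, quantile), GC correction, other filters, a pseudocount of 0.1, no abundance trend, a replicate block, the study's criterion (unadjusted p under 0.05 and a log2 difference past 0.5) and leaving out each replicate.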

Additional observations from a re-analysis of the deposited data

How the results depend on the processing

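All 9 members were higher in sh-ANP32B under every alternative run. Their median log2 difference of 0.85 became 0.76 with median-of-ratios scaling and 0.62 with GC correction, with or without the replicate block, and lay between 0.61 and 0.97 when a replicate was left out. Over all genes the calls numbered 559 (360 higher, 199 lower). They became 2534 with GC correction (1161 higher, 1373 lower), 1473 with the replicate block, 1806 with the block and GC correction (795 higher, 1011 lower), 3130 by the study's criterion, and 273 to 4079 when a replicate was left out, where the lone sample of a group was assumed to vary like the others. Without the abundance trend 0 genes were called, with 3701 at an unadjusted p under 0.05. Median-of-ratios scaling split the calls into 236 higher and 284 lower, and quantile normalization into 244 and 234. The 2 calls among pathway genes became 15 with GC correction, 7 with at least 1 TPM required in all 4 samples, 8 with the replicate block, 9 with the block and GC correction, 18 by the study's criterion (17 higher, 1 lower), 0 without the trend (23 at an unadjusted p under 0.05) and 2 to 27 when a replicate was left out. FGR and PILRA were called under every alternative fit except the one without the trend. In the main fit 2.90% of pathway genes were called, beside 3.32% of all genes. With GC correction these shares were 21.7% and 16.4%, and with the replicate block 11.6% and 8.76%. With the block and GC correction they were 13% and 11.7%. With at least 1 TPM required in all 4 samples they were 10.9% of 64 and 5.61% of 14476 (812 genes). Calls among all genes thus rose in the same fits, so the pathway counts have to be read beside them. The cause of these moves in the calls was not tested.

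The replicate numbers come from the titles, and nothing says that they mark shared handling. Deviations of same-numbered samples had a Pearson r of -0.0925 across 16817 genes, so the numbers were not taken as pairs. Sequencing depth is unknown, and low genes such as FCAR are the least certain.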

Other observations

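Genes outside the list that followed FCER1G, TYROBP and FCGR2A most closely were sought among 9113 genes, by the Euclidean distance between log2(TPM + 1) values centred on the NC mean, over the 4 samples. With 4 samples in 2 groups, many genes share such a course. For TYROBP they were NCF1 (distance 0.121), a subunit of the phagocyte oxidase, at 70.7 and 60.6 TPM in NC and at 246 and 281 TPM in sh-ANP32B, then CFP (properdin, 0.225), at 8.56 and 7.09 TPM in NC and at 26.8 and 43.3 TPM in sh-ANP32B, and NCF1B (0.255), a pseudogene that shares reads with NCF1. For FCER1G they were HERC2P2 (0.0133), ARMC7 (0.0392) and FXYD5 (0.0432), and for FCGR2A they were LUC7L (0.0192), MKNK1 (0.0225) and MCL1 (0.0288).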
